A study of Homo sapiens with 6 samples.

Results

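The chaperonin genes are 10 genes, picked by name from the 22481 genes of the count table: the 8 subunit genes of the cytosolic chaperonin CCT (TCP1, CCT2, CCT3, CCT4, CCT5, CCT6A, CCT7 and CCT8) and the genes of the mitochondrial chaperonin, HSPD1 (HSP60) and HSPE1 (HSP10). All 10 were among the 15387 genes abundant enough to test. The libraries are poly(A) RNA-seq of 143B, an established human osteosarcoma line, from wells of a 6-well plate. In 3 wells celastrol, a plant triterpene, was added after 24 h of growth and left for 24 h, and the other 3 wells were control wells grown on for the same time. The labels give neither the celastrol dose nor a vehicle for the control wells. Each library is 1 well of a single line and plate, so p-values measure only the spread between wells, which may be technical.

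Chaperonins are barrel-shaped complexes that enclose an unfolded protein and use ATP to let it fold inside. CCT, also called TRiC, stacks rings of 8 different but related subunits, each made from its own gene, and is best known for folding actin and tubulin. The mitochondrial barrel is built from HSPD1 alone, the human relative of bacterial GroEL, and is closed by a lid of HSPE1, the relative of GroES. HSPD1 and HSPE1 lie head to head on chromosome 2 and are heat shock genes, whose known activator HSF1 binds inverted repeats of the letters GAA.

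Library totals ran from 38408143 to 39453778 counts, and 18778 to 18948 genes were detected per library. On the first principal component, celastrol replicate 2 (-28.1) and control replicate 1 (23.4) stood nearest the other group, so results are also given without them where that matters. Of 7 mesenchymal and osteoblast markers, VIM (2540 to 3520 CPM) and SPARC (301 to 405 CPM) were abundant. COL1A2 was at 0 in 5 of the 6 libraries and ALPL was at 0.972 to 3.5 CPM. Among markers of other cell types, PTPRC, PECAM1, CDH5, CDH1, ALB and CD14 stayed at or under 0.643 CPM, and EPCAM was at 5.65 to 7.25 CPM in all libraries.

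Start windows of the mitochondrial pair are shown because both genes changed and lie head to head. The RefSeq start of HSPE1 lies 105 bases from that of HSPD1, on the other strand. The windows below run from 250 bases before to 50 bases after a RefSeq start on GRCh38.p14, and the sequences are RefSeq's. The first is the HSPE1 window, chr2:197500129-197500428 on the plus strand. The second belongs to the downstream start of HSPD1 in RefSeq, chr2:197499791-197500090 on the minus strand. The printed windows do not overlap each other, whereas the window of the upstream HSPD1 start, not printed, shares 204 bases with that of HSPE1. Capitals mark an E-box (CACGTG) in the first and inverted GAA repeats (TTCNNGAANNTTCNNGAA, N being any base) in the second.
HSPE1 start window: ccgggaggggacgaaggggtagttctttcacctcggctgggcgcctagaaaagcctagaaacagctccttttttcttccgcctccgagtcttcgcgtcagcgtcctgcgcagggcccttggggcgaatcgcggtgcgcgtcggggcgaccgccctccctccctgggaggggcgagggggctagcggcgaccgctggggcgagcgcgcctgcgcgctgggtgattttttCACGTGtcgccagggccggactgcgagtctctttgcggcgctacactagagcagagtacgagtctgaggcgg
HSPD1 downstream start window: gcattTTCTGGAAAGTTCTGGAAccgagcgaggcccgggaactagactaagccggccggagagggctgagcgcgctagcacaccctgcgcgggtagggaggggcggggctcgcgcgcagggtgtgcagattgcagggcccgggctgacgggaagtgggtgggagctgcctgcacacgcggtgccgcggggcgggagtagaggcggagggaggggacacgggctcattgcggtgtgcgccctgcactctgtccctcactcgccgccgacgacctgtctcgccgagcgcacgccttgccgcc
The run of 4 repeats, chr2:197500068-197500085, was found in 9 of 35116 start windows of the table (0.0256%), both strands searched. The shorter 3-repeat form (GAANNTTCNNGAA), which the longer one contains, was in 0.49% of windows. In GENCODE 29 the element lies in the first exon of a longer HSPE1 transcript and of 1 alternative HSPD1 transcript. It lies downstream of the first exon (197500160 to 197500274) of the HSPD1 transcript that begins at the upstream RefSeq start. Neither form was in the windows of 8 other chaperonin genes in the table (CCT6A has none there). The E-box, found in 7.26% of all windows, was in the HSPE1 window and in the overlapping window of the upstream HSPD1 start. The C/EBP-ATF element (TGATGNAA), present in 3.62% of all windows, was in 0 of the 12 chaperonin windows. Also searched were the ETS core (CGGAAG) and the CCAAT box. The ETS core was in 7 of the 12, among them the HSPE1 window, where it is not capitalised, and in 19.5% of all windows. The CCAAT box was in 4 of the 12 and in 34.6% of all windows. A match of letters is a description and does not show binding.

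Of the 10 chaperonin genes, HSPE1, HSPD1 and CCT3 rose with celastrol, CCT4 fell and 6 did not pass the test. A gene was called at an adjusted p under 0.05 in edgeR's quasi-likelihood test over all genes, and 48.4% of all genes tested were called (23.6% higher and 24.8% lower). The 4 calls in 10 are thus close to the share of all genes. The changes were small. The median absolute log2 fold change was 0.11 over the 10 chaperonin genes, against 0.33 over all genes tested. It was 0.20 over the 817 genes at least as abundant as CCT2, the least abundant CCT subunit, of which 61.8% were called (29.6% higher). HSPE1 alone moved by more than the median gene: 67.2% of all tested genes had a smaller absolute change.

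**Figure D1:**
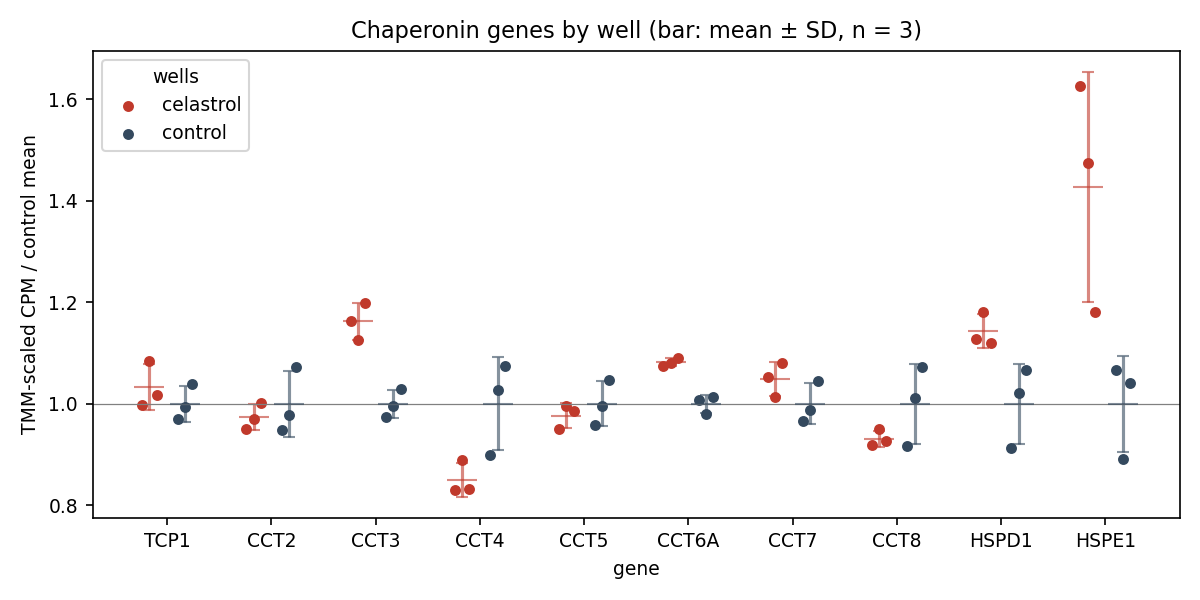
TMM-scaled CPM of each chaperonin gene in every well, divided by that gene's control mean, with celastrol wells left of control wells; points are wells and bars the mean ± SD (n = 3). The celastrol wells lie above all control wells for CCT3, CCT6A, HSPD1 and HSPE1 and below all of them for CCT4.

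HSPE1, the HSP10 lid (NCBI gene 3336, chromosome 2, 197500379 to 197503449), changed most. It had 40.76, 36.93 and 29.58 TMM-scaled CPM in celastrol replicates 1, 2 and 3, against 26.74, 22.35 and 26.1 CPM in control replicates 1, 2 and 3. Every celastrol well was above every control well, with celastrol replicate 3 close to the controls. Non-overlap of this kind was seen in 56.9% of all genes tested. The mean was 35.75 ± 5.68 CPM with celastrol and 25.06 ± 2.37 CPM in controls (SD, n = 3 each), a log2 fold change of 0.51 ± 0.11 (SE, edgeR adjusted p = 0.0013). HSPE1 was called in all 16 alternatives of scaling, filter, tool and left-out library.

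HSPD1, the barrel subunit (gene 3329, chromosome 2, 197486584 to 197500274), had 946.7, 991.6 and 940.2 CPM in celastrol replicates 1, 2 and 3, against 766.4, 857.6 and 895.1 CPM in control replicates 1, 2 and 3. The groups did not overlap, with control replicate 3 nearest to the lowest celastrol well, and control replicate 1 stood well below the others. The means were 959.5 ± 28 CPM with celastrol and 839.7 ± 66.2 CPM in controls (SD, n = 3 each), a log2 fold change of 0.19 ± 0.059 (SE, edgeR adjusted p = 0.0116). The call was lost without celastrol replicate 2 (0.17, edgeR adjusted p = 0.0544) and without both it and control replicate 1 (0.11, edgeR adjusted p = 0.134). Over the 16 alternatives the adjusted p ran from 0.00243 to 0.134, and HSPD1 stayed higher in every one.

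HSPE1 counts carry a limit of identity. RefSeq names 28 HSPE1 and 22 HSPD1 pseudogenes by symbol. Of the 100-base windows of the longest GENCODE 29 coding transcript of HSPE1, 33.5% occur unchanged in a transcript of another gene. These genes are HSPD1 on the other strand, the readthrough HSPE1-MOB4 and the pseudogenes HSPE1P2, HSPE1P3 and HSPE1P4. The share was 3.9% for HSPD1. By the same measure it was 46.4% for CCT5, 12.5% for TCP1 and 7.31% for CCT4, each with a gene on the opposite strand. It was 0 for the other CCT subunits. HSPE1-MOB4 and the pseudogenes have no rows of those names in the count table. The sources used here do not say how shared reads were assigned. HSPE1 and HSPD1 also share 281 exon bases on opposite strands in that annotation, 14.2% of HSPE1 and 6.62% of HSPD1 exon bases. These lie in a longer HSPE1 form that starts at 197499994, before the RefSeq HSPE1 start at 197500379. Counts and FPKM together gave an HSPE1 length of 557 bases, against 950 for the transcript searched. Whether the overlapping part was counted is therefore not known. The part of shared reads in the HSPE1 values was not tested.

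Among the CCT subunits, 1 of 8 rose and 1 fell, while 23.6% of all genes tested were higher and 24.8% lower. The median log2 fold change of the subunits was 0.0058, beside -0.00024 over all genes tested. CCT3, the gamma subunit (gene 7203, chromosome 1, 156308968 to 156338292), had 422.1, 408.6 and 435.4 CPM in celastrol replicates 1, 2 and 3, against 353.9, 361.7 and 373.9 CPM in control replicates 1, 2 and 3. All celastrol wells were above all control wells by a gap wider than the spread of either group. Its means were 422 ± 13.4 CPM with celastrol and 363.2 ± 10.1 CPM in controls (SD, n = 3 each), a log2 fold change of 0.22 ± 0.055 (SE, edgeR adjusted p = 0.00319).

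CCT4, the delta subunit (gene 10575, chromosome 2, 61868085 to 61888671), went the other way. It had 393.5, 421.5 and 395 CPM in celastrol replicates 1, 2 and 3, against 426, 487.6 and 509.6 CPM in control replicates 1, 2 and 3. The groups did not overlap, yet celastrol replicate 2 and control replicate 1 were only a few CPM apart. The means were 403.3 ± 15.7 CPM with celastrol and 474.4 ± 43.4 CPM in controls (SD, n = 3 each), a log2 fold change of -0.23 ± 0.065 (SE, edgeR adjusted p = 0.00615). CCT3 and CCT4 were called in the same direction in all 16 alternatives, with CCT4 nearest the threshold at an adjusted p of 0.0483. In GENCODE 29, CCT4 shares 12.6% of its exon bases with genes on the opposite strand, COMMD1 and an antisense RNA. The antisense RNA shares 9.72% and COMMD1 2.86%. COMMD1 itself was at 11.84 ± 0.695 CPM with celastrol and 10.64 ± 0.641 CPM in controls (SD, n = 3 each), far below CCT4. The antisense RNA, AC107081.2, has no row of that name in the count table, so its level is not known. The part of shared reads in the CCT4 values was not tested.

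CCT6A, the zeta subunit (gene 908, chromosome 7, 56051765 to 56063989), had 624.7, 628 and 633.8 CPM in celastrol replicates 1, 2 and 3, against 585.8, 570 and 589.2 CPM in control replicates 1, 2 and 3. The groups did not overlap, but the difference of 0.11 ± 0.051 on the log2 scale did not pass (SE, edgeR adjusted p = 0.0744). It was called in 4 of 16 alternatives, namely with library size alone (0.15, adjusted p = 0.0139), by limma on log2(FPKM + 1) and log2(FPKM + 0.1) (0.0128 and 0.0144) and with the replicate number as a block (0.0401). CCT8, the theta subunit (gene 10694, chromosome 21, 29056326 to 29073648), had 333.2, 344.2 and 335.8 CPM in celastrol replicates 1, 2 and 3, against 332.2, 366.8 and 388.8 CPM in control replicates 1, 2 and 3. Control replicate 1 lay below all celastrol wells and the other control wells above them (log2 fold change -0.10, edgeR adjusted p = 0.179). Without control replicate 1 CCT8 was called lower (-0.16, edgeR adjusted p = 0.0153), and without both that well and celastrol replicate 2 (-0.18, 0.0159).

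For TCP1 (the alpha subunit, gene 6950, chromosome 6, 159778498 to 159789602), CCT2 (beta, gene 10576, chromosome 12, 69585459 to 69601570), CCT5 (epsilon, gene 22948, chromosome 5, 10249921 to 10266412) and CCT7 (eta, gene 10574, chromosome 2, 73234308 to 73253005) the groups overlapped. TCP1 had 309.3 to 336.3 CPM with celastrol and 300.8 to 322.2 CPM in controls. CCT2 had 192.3 to 202.6 CPM with celastrol and 192 to 216.9 CPM in controls. CCT5 had 860.9 to 902.4 CPM with celastrol and 868.7 to 949.2 CPM in controls. In these genes celastrol and control wells were interleaved. CCT7 had 528.6 to 563.3 CPM with celastrol and 504.2 to 545.2 CPM in controls. The 95% intervals of their log2 fold changes ran from -0.075 to 0.17 for TCP1, from -0.17 to 0.093 for CCT2, from -0.14 to 0.076 for CCT5 and from -0.046 to 0.18 for CCT7. None of the 4 was called in any of the 16 alternatives, whose lowest adjusted p was 0.0798, for CCT7. In GENCODE 29, CCT5 shares 30.1% of its exon bases with an antisense RNA and TCP1 shares 8.05% with ACAT2, which encodes a thiolase and itself fell (-0.34, edgeR adjusted p = 0.000687).

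**Figure D2:**
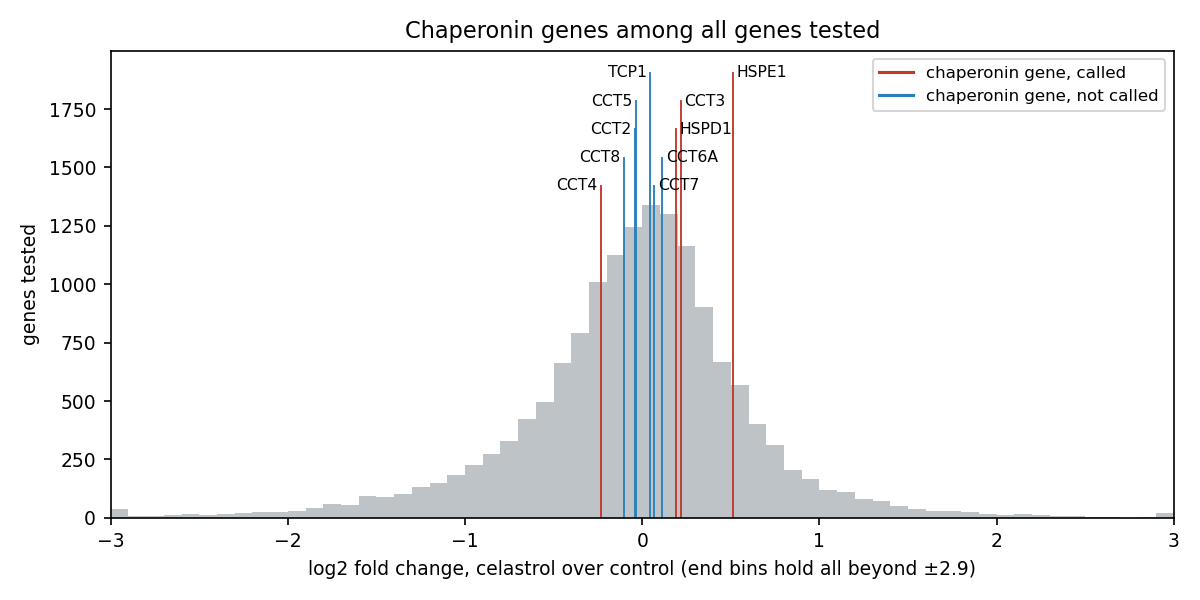
Histogram of the log2 fold change of all 15387 genes tested (celastrol over control, genes per bin of 0.1), with a line for each chaperonin gene, red where called and blue where not. Apart from HSPE1, all of them lie in the central part of the distribution, between -0.23 (CCT4) and 0.22 (CCT3).

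Levels can be compared between genes only per length, for which the authors' FPKM values were used. HSPD1 was the highest of the 10, at 412.3 ± 13 FPKM with celastrol and 350.5 ± 25.7 FPKM in controls (SD, n = 3 each), or 2.145 ± 0.064 and 1.894 ± 0.074 times the mean CCT subunit. HSPE1 was the lowest, at 65.13 ± 10.7 FPKM with celastrol and 44.33 ± 4.12 FPKM in controls. The ratio of HSPD1 to HSPE1 was 5.482, 6.337 and 7.503 in celastrol replicates 1, 2 and 3, against 6.765, 9.055 and 8.094 in control replicates 1, 2 and 3. These ratios overlapped between the groups, and the limit on HSPE1 reads given above applies to them.

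In a complex that takes its subunits in equal number, the FPKM values were not equal. The order below rests on the gene lengths used by the authors, whose annotation release is not given. Counts and FPKM together gave lengths from 1977 bases for CCT3 to 3798 bases for CCT5. Other lengths were not tried. The order per length in the celastrol wells was CCT7 (272.6 ± 7.85 FPKM), CCT6A (246.8 ± 0.584), CCT5 (236.5 ± 5.35), CCT3 (216.4 ± 6.1), CCT4 (171.1 ± 6.95), CCT8 (158.4 ± 2.88), TCP1 (138.1 ± 6.2) and CCT2 (98.05 ± 2.1 FPKM; SD, n = 3 each). In the celastrol wells no neighbours in this order overlapped. In the control wells the order was CCT7 (252.5 ± 8.38 FPKM), CCT5 (235.2 ± 8.83), CCT6A (221.8 ± 3.27), CCT4 (195.4 ± 16.8), CCT3 (181 ± 3.76), CCT8 (165.2 ± 12), TCP1 (130 ± 3.63) and CCT2 (97.8 ± 5.58 FPKM; SD, n = 3 each). There CCT4 (176.4 to 208.2 FPKM) and CCT3 (177.2 to 184.8 FPKM) overlapped, while the lowest CCT7 well (245.3 FPKM) was just above the highest CCT5 well (244.1 FPKM). The highest subunit stood 2.698 to 2.861 times above the lowest in the celastrol wells and 2.516 to 2.629 times in the control wells.

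**Figure D3:**
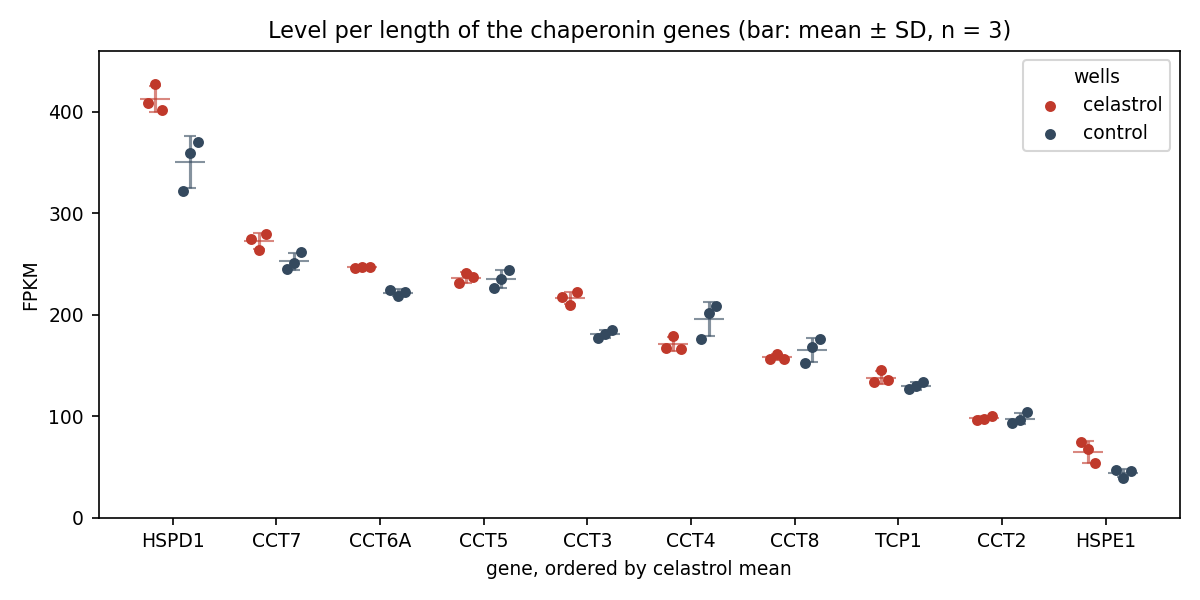
FPKM of each chaperonin gene in every well, celastrol left of control, with the mean ± SD (n = 3), ordered by the celastrol mean. HSPD1 is highest and HSPE1 lowest in both groups, and between them CCT6A and CCT5 change places, as do CCT3 and CCT4, whose control wells overlap.

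The sum of the 8 CCT subunits was 1524, 1546 and 1544 FPKM in celastrol replicates 1, 2 and 3, against 1422, 1480 and 1535 FPKM in control replicates 1, 2 and 3. The means were 1538 ± 12.5 FPKM with celastrol and 1479 ± 56.6 FPKM in controls. Control replicate 3 lay within the celastrol range. On the TMM scale the sums overlapped too, at 3685 to 3775 CPM with celastrol and 3563 to 3895 CPM in controls. Both sums are relative to the library, so they show neither a difference in cell number nor one in total RNA per cell. Within the sum, CCT3 made up 14.07% ± 0.432 of CCT FPKM with celastrol and 12.24% ± 0.215 in controls, and CCT4 11.12% ± 0.414 and 13.2% ± 0.688 (SD, n = 3 each). The ratio of CCT3 to CCT4, chosen after their values were seen and so not tested, was 1.297, 1.172 and 1.333 in celastrol replicates 1, 2 and 3, against 1.005, 0.8971 and 0.8873 in control replicates 1, 2 and 3. It was above 1.1 in every celastrol well and near or under 1 in every control well.

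Across the 6 libraries, the genes most like the mean CCT profile were RAD23B (a ubiquitin-binding DNA repair factor), FKBP1A (a peptidyl-prolyl isomerase), RAN (the GTPase of nuclear transport), ANP32B (a histone-binding protein) and CCND1 (cyclin D1). Likeness was the root mean square difference of centred log2 CPM, which was 0.0141 to 0.0195 for these 5 of 6161 candidate genes. The CCT subunits themselves differed from their own mean profile by 0.0219 (CCT5) to 0.128 (CCT4), and HSPD1 and HSPE1 by 0.102 and 0.298. All 5 genes had overlapping groups and log2 fold changes between -0.0084 and 0.030. Both follow from the selection, because the mean CCT profile itself overlapped between the groups. It ran from -0.0199 to 0.0146 in celastrol wells and from -0.0687 to 0.0673 in control wells (centred log2 CPM). The 5 genes were picked as the closest candidates and the subunits were not, so their distances cannot be ranked against each other.

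Some CCT genes start next to a gene on the other strand. In GENCODE 29, CCT6A starts 26 bases from PSPH, which encodes the last enzyme of serine synthesis and had 105.3 ± 5.6 CPM with celastrol and 60.73 ± 4.59 CPM in controls (SD, n = 3 each). PSPH rose (0.79 ± 0.074 SE, edgeR adjusted p = 1.72e-07), while CCT6A did not pass. The partners of CCT5 (ATPSCKMT, a mitochondrial methyltransferase gene, 0.30), TCP1 (MRPL18, a mitochondrial ribosomal protein gene, 0.16) and CCT7 (PRADC1, -0.019) did not pass either. COMMD1, whose start overlaps that of CCT4, did not pass (0.15, edgeR adjusted p = 0.35), while CCT4 fell. MRPL18 was called only without control replicate 3 (0.26, adjusted p = 0.0306). ATPSCKMT was called only by limma on FPKM (adjusted p = 0.0464 and 0.0456).

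Genes that work with CCT went both ways. Their counts are to be read beside the 23.6% of all genes tested that were higher and the 24.8% that were lower. Prefoldin, which hands unfolded actin and tubulin to CCT, and the phosducin-like and related cofactors counted 3 higher and 1 lower of 10 tested. PFDN2, a prefoldin subunit, fell to 77.7 ± 2.1 CPM with celastrol, against 116.6 ± 12.1 CPM in controls (-0.59 ± 0.075 SE, edgeR adjusted p = 5.67e-06), while PFDN6 rose (0.33, adjusted p = 0.00112). TXNDC9, a phosducin-like regulator of CCT, rose as well (0.47, edgeR adjusted p = 0.000626). The prefoldin-like complex with its R2TP partners had 4 of 9 higher and 0 lower, among them PDRG1 (0.43) and the shared RNA polymerase subunit gene POLR2E (0.41). Without control replicate 1, or among genes of at least 10 CPM in 3 libraries, 2 of the first list were lower and 1 of the second was. Among 4 tested relatives of CCT, MKKS, a chaperonin-like gene of the Bardet-Biedl group, rose to 41.13 ± 0.589 CPM, against 25 ± 2.52 CPM in controls (0.72, edgeR adjusted p = 6.28e-06). BBS10, of the same group, was the other call (0.77, adjusted p = 0.029), and its groups overlapped. Leaving out celastrol replicate 1, celastrol replicate 2, control replicate 2 or control replicate 3 each ended that call (adjusted p of 0.0827 to 0.0859) and left 1 of the list. Control replicate 1 (10.5 CPM) stood above the other control wells (5.397 and 5.376 CPM), and without it the BBS10 difference was 1.17 (edgeR adjusted p = 6.37e-06). CCT6B, a paralog of CCT6A known from testis, was read at only 29 to 32 counts with celastrol and 30 to 47 counts in controls and did not pass.

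Of 13 tubulin and actin genes, whose products are the main CCT clients, 5 fell and 1 rose. Over all genes tested 24.8% were lower and 23.6% higher, which is the share to set beside the counts of this paragraph. TUBB6, a beta-tubulin, fell to 273.2 ± 5.54 CPM with celastrol, against 424.2 ± 29.8 CPM in controls (-0.63 ± 0.060 SE, edgeR adjusted p = 1.88e-07). ACTG1, a cytoplasmic actin, fell to 1998 ± 29.7 CPM, against 2809 ± 81.9 CPM in controls (-0.49 ± 0.047 SE, edgeR adjusted p = 2.32e-07). The alpha-tubulin TUBA1A fell too (-0.42), and the beta-tubulin TUBB3 rose (0.34). The abundant TUBB stood at 2537 ± 94.7 CPM with celastrol and 2491 ± 178 CPM in controls (0.027, edgeR adjusted p = 0.719). Tubulin and actin genes have close copies, so reads may be split between them. Without control replicate 1, 3 of these genes were higher. Of 6 tubulin folding cofactors, TBCC rose (0.51, edgeR adjusted p = 0.000451), 5 did not pass, and 1 was lower without control replicate 1. Of 13 other CCT clients, 3 rose and 1 fell. The risers were RPTOR and MLST8, which encode mTOR complex subunits (0.49 and 0.36), and FZR1, an activator of the anaphase-promoting complex (0.43). The lower call, PPP2R2A, a phosphatase subunit gene (-0.19, edgeR adjusted p = 0.032), was lost when any 1 celastrol replicate, control replicate 2 or control replicate 3 was left out, with library size alone and by limma on FPKM (adjusted p of 0.07 to 0.14). Over the 16 alternatives, 0 to 4 of this list were lower, and the count moved in 12 of them. It was 4 among genes of at least 10 CPM in 3 libraries and 2 with no filter on low counts. With libraries left out, 3 were lower without control replicate 1, 2 without celastrol replicate 3, and 0 when celastrol replicate 1, celastrol replicate 2 or control replicate 2 was left out.

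Of 9 folding partners of the mitochondrial chaperonin, 6 rose and 1 fell, while 23.6% of all genes tested were higher and 24.8% lower. Their median log2 fold change was 0.41, beside -0.00024 over all genes tested, 0.19 for HSPD1 and 0.51 for HSPE1. HSPA9, the mitochondrial HSP70 that passes imported proteins on for folding, rose to 545.6 ± 29.8 CPM with celastrol, against 411.3 ± 13 CPM in controls (0.41 ± 0.057 SE, edgeR adjusted p = 1.28e-05). Its cofactor gene GRPEL2 rose with it (0.50), and DNLZ, a zinc-finger partner of HSPA9, rose to 8.223 ± 1.18 CPM, against 4.109 ± 0.964 CPM in controls. PPIF, which encodes the matrix isomerase cyclophilin D, rose to 170.4 ± 18.2 CPM, against 87.8 ± 3.7 CPM in controls (0.96 ± 0.076 SE, edgeR adjusted p = 2.84e-08). TRAP1, the mitochondrial HSP90, fell (-0.24, edgeR adjusted p = 0.00218).

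Of 13 tested genes of mitochondrial import and presequence removal, 8 rose and 1 fell, beside 23.6% higher and 24.8% lower over all genes tested. TIMM44, which anchors the import motor, changed most (0.72 ± 0.088 SE, edgeR adjusted p = 3.77e-06), followed by the pore gene TOMM40 (0.45) and the inner membrane translocase gene TIMM17A (0.28). PMPCA, a subunit of the presequence protease, fell (-0.26). The count higher was 5 without celastrol replicate 1 and 4 without celastrol replicate 3. Of 9 mitochondrial proteases, 3 rose and 3 fell. LONP1, the matrix protease, rose to 200.4 ± 6.17 CPM with celastrol, against 140.6 ± 22.3 CPM in controls (0.51 ± 0.088 SE, edgeR adjusted p = 0.000187), and the unfoldase gene CLPX fell (-0.33). With celastrol replicate 1, celastrol replicate 3 or control replicate 3 left out, or with library size alone, 1 protease was lower, and without celastrol replicate 3, 1 was higher.

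**Figure D4:**
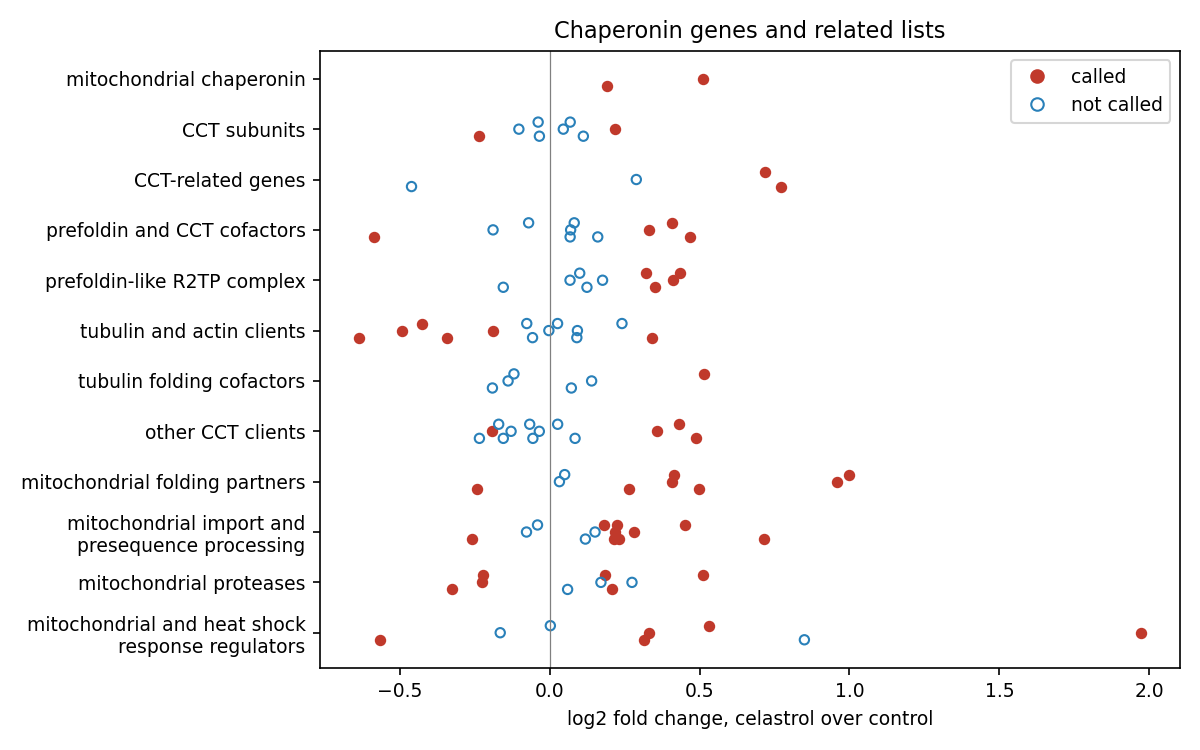
Log2 fold change (celastrol over control) of every tested gene of the chaperonin lists and the 10 related lists, red where called and open where not. The CCT subunits lie close to 0, while most mitochondrial folding and import genes lie above 0, with PPIF at 0.96 and TIMM44 at 0.72.

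Of 8 regulators of the mitochondrial and heat shock responses, 4 rose and 1 fell, where 48.4% of all genes tested were called. ATF5, a transcription factor tied to mitochondrial stress, rose to 37.4 ± 6.79 CPM with celastrol, against 9.537 ± 1.11 CPM in controls. ATF4 rose by less (0.53), as did SSBP1, a mitochondrial DNA-binding protein gene (0.33). HSF1, the heat shock factor, was at 109.7 ± 6.2 CPM with celastrol and 109.6 ± 7.04 CPM in controls (0.0024, edgeR adjusted p = 0.982), and HSF2 fell (-0.57). DDIT3, which encodes CHOP, had 31.71 ± 7.26 CPM with celastrol and 17.6 ± 7.76 CPM in controls and did not pass (0.85, edgeR adjusted p = 0.125). Without control replicate 3 DDIT3 was called (1.27, edgeR adjusted p = 8.43e-05), and limma-voom (0.00278), limma on FPKM (0.022 and 0.0183) and the replicate block (0.00328) called it too. Without celastrol replicate 2, without control replicate 1, with no filter on low counts and among genes of at least 10 CPM in 3 libraries, 2 of the 8 regulators were lower.

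The share of all genes called moved with the setting, and the calls of chaperonin genes are to be read against it. With library size alone 27.1% of genes were higher, and with no filter 17.2% were lower. Leaving out celastrol replicate 1 gave 18.7% higher and 20.4% lower, and celastrol replicate 3 gave 18.6% and 20.3%. Without control replicate 2 the shares were 19.2% higher and 19.9% lower.

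**Figure D5:**
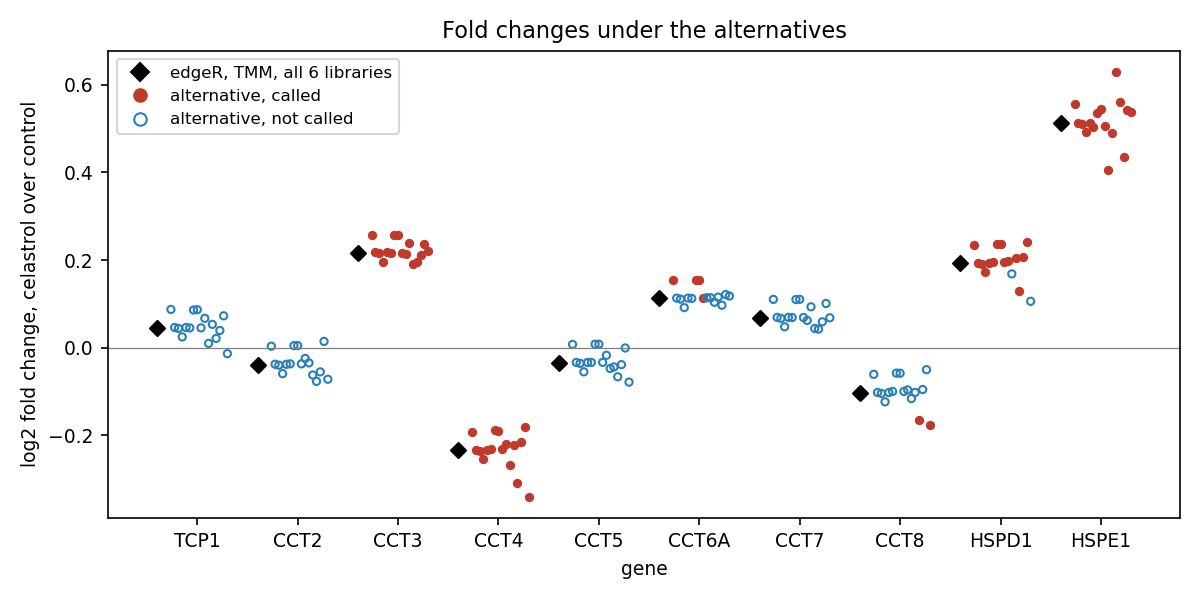
Log2 fold change (celastrol over control) of each chaperonin gene with all 6 libraries and TMM scaling (diamond) and under the 16 alternatives (points, red where called). CCT3, CCT4 and HSPE1 were called in all 16, HSPD1 in 14, CCT6A in 4, CCT8 in 2, and TCP1, CCT2, CCT5 and CCT7 in 0.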

How the data were processed

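Libraries had U-labelled second strands, per the labels' protocols. The authors deposited raw counts of 22481 genes in 6 libraries. The deposited FPKM table was scaled by the authors by gene length and library total: counts and FPKM together gave the same length in every library (within 1e-06) for all 20198 genes detected in 2 or more. The submitters' processing notes name hg38 and list edgeR, DESeq2, StringTie 2.1.6, HISAT2 2.2.1 and cutadapt 1.9. The annotation release and the use of strand in counting are not given in the sources used here.

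Genes were filtered with filterByExpr, scaled by TMM and compared by the quasi-likelihood test of edgeR 4.0.16 (robust, R 4.3.3) with Benjamini-Hochberg adjustment over 15387 genes. Standard errors were taken from the F statistic (absolute log2 fold change over its root). Alternatives used DESeq2 1.42.0, limma 3.58.1, other scalings and filters, a replicate block and left-out libraries. The floor for an undetected gene, 3 counts, equals 0.076 to 0.0781 CPM and covers counting error only. No replicates were near-copies: chi-square over its degrees of freedom was 6.66 to 22.2 between wells of a group. On simulated counts (15179 genes tested, 200 changed), the test recovered 20% of genes changed 1.25-fold and 68% at 1.5-fold, with 5 false of 139 calls. The changed genes were drawn at all abundances and were few, whereas 48.4% of genes were called in the data. These shares therefore do not give the power for the abundant chaperonin genes.

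The chaperonin genes, lists, naming rule and tests were chosen with earlier results of these data known. The naming rule takes all 10 chaperonin genes, up to 3 called genes in each direction per related list with a log2 CPM of at least 2, HSPA9, LONP1, HSF1, ATF5, DDIT3 and CCT6B, the 5 genes of most similar profile, and neighbours. TUBB was named after its values were seen. Gene positions come from RefSeq (GRCh38.p14) through the NCBI gene ID; start windows were matched for 9 of the 10 genes.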

Additional observations from a re-analysis of the deposited data

How the results depend on the processing

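The changes of HSPE1, CCT3 and CCT4 kept their direction and call under all 16 alternatives (HSPE1 0.40 to 0.63, CCT3 0.19 to 0.26, CCT4 -0.34 to -0.18 on the log2 scale). The number of chaperonin genes called higher ran from 2 to 4, and the number called lower was 1 or 2: it was 1 to 2 over the left-out libraries, and 2 without both celastrol replicate 2 and control replicate 1. The median of the CCT subunits stayed near 0 (-0.043 to 0.048) and was below 0 in 4 of 16 alternatives. Library size alone moved the median of all genes to 0.041, and calls over all genes to 4170 higher and 3382 lower. With the replicate number as a block, 3831 genes were higher and 3928 lower, and among the chaperonin genes the block added only CCT6A. Among the related lists, the block moved the count lower to 4 of the other CCT clients (1 without it), 2 of prefoldin and the cofactors (1 without it) and 2 of the regulators (1 without it). Same-numbered wells deviated together only weakly (correlations of 0.0518 to 0.0908), though more than wells of different number (-0.0838 to 0.00794). Each well thus correlated best with its own number. The labels do not say that same-numbered wells were paired, so the main fit had no block. With 3 wells a group the depth is ample for these abundant genes, and the spread between wells limits what can be called.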
